A study of Mus musculus with 12 samples.

Results

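The immediate early genes examined here are 37 mouse genes, most of which neurons and other cells switch on within minutes of a stimulus, taken by symbol from a list written from their known biology, with earlier results of these data known. All 37 were found among the 16744 genes measured in hypothalamus on a high-fat diet (HFD), and 36 among the 16855 genes measured on chow, where *Atf3* was not listed. Hypothalamus RNA came from 12 male *C57BL/6J* mice of 8 weeks in 4 groups of 3, which were wild-type (WT, +/+) or *Gpr75-/-* and ate a chow diet throughout or a lard-based HFD for 2 weeks from 6 weeks of age. The *Gpr75-/-* allele is a CRISPR/Cas9 frameshift near the start of the coding sequence carried in every cell of the body, so no cell type is singled out by the model and the mRNA can still be made. The question of the study was what the loss of GPR75, a G protein-coupled receptor of brain cells, does to gene expression in the part of the brain that controls feeding.

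Immediate early genes need no newly made protein for their transcription. When a neuron fires, calcium entry and MAP kinase signaling act on factors already bound at these genes, among them CREB, which binds the cAMP response element (CRE), and serum response factor, which binds the CArG box. The first products are mostly transcription factors and short-lived regulators that then set a second wave of genes and damp the signal again, and in the hypothalamus their RNA is widely used to mark recently active neurons, for example after fasting or refeeding.

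The values are the authors' group values for each genotype, 1 for each group of 3 mice, read back here to counts per 1000000 reads (CPM), and the mean normalized count over the 6 mice of each diet. The values used here are pooled by group, and the authors' standard errors were left aside. No difference below was therefore set against the spread between mice, and no test was run. Each difference is given as *Gpr75-/-* minus WT on the log2 scale with a 95% interval that covers counting error and the rounding of the group values only. A *Gpr75-/-* value at least 20% lower or 25% higher than WT, which is 0.32 on the log2 scale either way, served as a yardstick of size, and counts of genes past it are read against the share of all genes past it, among those with a mean of at least 25 normalized counts, 16207 on chow and 16303 on the HFD. The mean counts of a mouse summed to 18280462 on chow and 19420111 on the HFD, and the immediate early genes had mean counts between 25.1 and 2070, all above that minimum. CPM is not scaled to transcript length, so levels are not compared between genes. In bulk tissue, fewer cells of a type and less RNA per cell cannot be told apart.

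*Gpr75* itself had a group value of 16.7 CPM in WT mice and 24.6 CPM in *Gpr75-/-* mice on chow, and 19.9 and 18.4 CPM on the HFD, so its RNA was present in every group and does not check the genotype labels. Markers of neurons and of hypothalamic neurons were both present, and how pure the dissection was could not be told from them. Neuronal RNAs were abundant, with *Syt1* between 1027 and 1083 CPM in the 4 groups, and *Pomc*, which encodes the precursor of melanocortin peptides in arcuate neurons, lay between 14.2 and 28.2 CPM. *Slc17a7*, a neuron marker strong in cortex, lay between 20.4 and 38.8 CPM. Several marker lists differed between the genotypes and follow the counts for each diet.

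The promoters of 4 genes are shown because their RNA was at least 20% lower in *Gpr75-/-* mice on the HFD and their window bears the core of the CRE, TGACG on either strand, which is in capitals. They were chosen after the values were seen, from 6 genes with both features, the others being *Egr2* and *Nr4a1*. Each window runs 5′ to 3′ along the gene from 250 bases before the transcription start to 50 bases after it, as given by RefSeq on GRCm38.p6. The windows are chr19:4989922-4990221 for *Npas4*, chr6:85513540-85513839 for *Egr4*, chr1:134079106-134079405 for *Btg2* and chr8:84978699-84978998 for *Junb*, all on the minus strand.
Npas4: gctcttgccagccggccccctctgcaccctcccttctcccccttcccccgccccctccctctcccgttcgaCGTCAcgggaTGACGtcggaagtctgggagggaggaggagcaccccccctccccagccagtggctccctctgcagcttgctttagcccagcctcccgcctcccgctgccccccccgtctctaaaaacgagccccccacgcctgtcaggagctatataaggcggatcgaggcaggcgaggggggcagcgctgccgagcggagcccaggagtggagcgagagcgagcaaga
Egr4: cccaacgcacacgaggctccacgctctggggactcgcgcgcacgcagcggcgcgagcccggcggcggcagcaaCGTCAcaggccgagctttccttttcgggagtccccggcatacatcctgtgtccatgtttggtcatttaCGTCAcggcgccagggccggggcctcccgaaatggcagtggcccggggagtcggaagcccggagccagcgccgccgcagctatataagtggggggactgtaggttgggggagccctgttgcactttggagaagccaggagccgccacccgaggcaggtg
Btg2: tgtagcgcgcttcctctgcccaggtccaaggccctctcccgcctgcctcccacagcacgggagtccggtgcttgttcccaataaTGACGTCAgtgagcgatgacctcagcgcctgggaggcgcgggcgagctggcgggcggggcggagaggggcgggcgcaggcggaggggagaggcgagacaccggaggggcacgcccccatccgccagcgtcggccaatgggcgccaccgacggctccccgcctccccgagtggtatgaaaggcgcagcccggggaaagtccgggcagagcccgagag
Junb: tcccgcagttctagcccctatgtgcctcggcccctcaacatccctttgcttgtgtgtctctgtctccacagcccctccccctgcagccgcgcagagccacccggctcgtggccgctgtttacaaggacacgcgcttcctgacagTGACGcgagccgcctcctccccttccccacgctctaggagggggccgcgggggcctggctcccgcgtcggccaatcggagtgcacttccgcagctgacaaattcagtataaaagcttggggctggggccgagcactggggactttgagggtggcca

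Windows were found for 28 of the 37 genes. The CRE core was present in 18 of these 28 (64.3%), against 23.0% of 27025 genes with a window. Genes with several starts have more chances of a match, and among genes with 1 window the shares were 13 of 23 (56.5%) and 20.6%. In the sequences above, *Npas4* and *Egr4* each hold the core in 2 places. In *Btg2* both matches overlap and form the full palindrome TGACGTCA, which 3 of the 28 genes hold (*Btg2*, *Dusp1* and *Maff*), against 2.03% of all genes. *Junb* holds 1 core. The site GCGNGGGCG, bound by EGR factors, was found in 9 of 28 genes against 6.27%, the CArG box in 3 (*Egr2*, *Dusp5* and *Zfp36*) against 1.81%, and the AP-1 site TGANTCA in 2 against 8.97%. Of the 10 genes at least 20% lower on either diet, *Egr3*, *Ier2* and *Arc*, which were lower on both diets, had no window. Of the 7 with a window, 6 held the core, as did 12 of the other 21 genes. These shares therefore leave out several of the genes lower on both diets. A match is a run of letters in this window and not a measured binding site.

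On the chow diet, some genes of the set had lower and others higher group values in *Gpr75-/-* mice. *Egr3*, *Egr4*, *Npas4*, *Ier2*, *Ier5* and *Arc* were at least 20% lower in *Gpr75-/-* mice, whereas *Maff* and *Nr4a3* were at least 25% higher and *Fos* was close to the WT value. Of the 36 genes, 6 (16.7%) were at least 20% lower, against 3.36% of all genes, and 2 (5.56%) at least 25% higher, against 3.57%. The interval lay wholly below 0 for 12 genes and wholly above 0 for 4, against 9.51% and 9.43% of all genes. The median difference over the 36 genes was 0.00, the same as over all genes, with 17 genes below 0 and 15 above.

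Markers of other cells and states differed between the genotypes in the same chow libraries, and their part in these counts was not tested. The summed value of 6 choroid plexus genes was 36.3 CPM in WT and 62.7 CPM in *Gpr75-/-* mice, with all 5 that passed the minimum at least 25% higher, and *Kcnj13* and *Aqp1* at the lowest value the scale can hold in WT mice. The mean count of *Ttr* over the 6 mice came to 159 CPM, far above both of its group values (5.59 and 12.9 CPM), and that of *Kl* to 19.5 CPM against 6.64 and 15.9 CPM. The chow group values therefore do not give the whole choroid plexus RNA of these libraries, and pooled values do not show which mice carried it. The 5 blood genes summed to 277 and 443 CPM, again with all 5 at least 25% higher. Of 16 genes induced by glucocorticoids, the stress hormones of the adrenal, 12 (75%) were at least 25% higher and 0 at least 20% lower, against 3.57% and 3.36% of all genes, among them *Plin4* (7.42 against 12.6 CPM), *Zbtb16* (21.0 against 33.4 CPM) and *Sgk1* (138 against 207 CPM). All 10 oligodendrocyte markers had differences below 0, with 2 at least 20% lower and a sum at 0.854 of WT. The 10 neuron markers summed to 0.972 of WT with a median of 0.00, and 0 of them were past the yardstick. Of 10 markers of hypothalamic neurons, 1 was at least 25% higher and 0 at least 20% lower. Their intervals lay wholly below 0 for 2 and wholly above 0 for 2. *Pomc* was at 0.826 of WT on chow (17.1 against 14.2 CPM).

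On the HFD, the genes at least 20% lower were *Egr2*, *Egr3*, *Egr4*, *Npas4*, *Ier2*, *Btg2*, *Junb*, *Nr4a1* and *Arc*, and those at least 25% higher were *Dusp5* and *Gadd45b*. These are 9 of 37 genes (24.3%) lower, against 2.30% of all genes, and 2 (5.41%) higher, against 2.67%. The interval lay wholly below 0 for 13 genes and wholly above 0 for 4, against 6.91% and 7.91% of all genes. The median over the 37 genes was -0.05 and that over all genes 0.00, with 21 genes below 0 and 14 above.

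Marker lists also differed between the genotypes in the HFD libraries, and their part in these counts was not tested either. The 3 choroid plexus genes measured there summed to 29.7 CPM in WT and 29.8 CPM in *Gpr75-/-* mice, but *Ttr*, the transthyretin gene, had 3.60 against 1.35 CPM, or 0.375 of WT (interval -1.80 to -1.03), while *Clic6* had 18.9 against 20.4 CPM and *Kl* was at 1.12 of WT, both with intervals that span 0. All 5 blood genes had intervals below 0, with a sum of 314 against 280 CPM and *Alas2*, which starts heme synthesis in red cells, at 0.695 of WT. Of the 16 glucocorticoid-induced genes, 11 had differences above 0 and 6 an interval above 0 (37.5%, against 7.91% of all genes), with a median of 0.13. *Fkbp5* was at 1.29 of WT and *Sgk1* at 1.19, and 1 gene was at least 20% lower, *Map3k6* (3.75 against 2.60 CPM). All 10 oligodendrocyte markers had intervals below 0, with 3 at least 20% lower and a sum at 0.856 of WT. The 10 neuron markers summed to 0.980 of WT with a median of -0.05, and 1 was at least 20% lower, *Slc17a7* (28.2 against 20.4 CPM), the gene of the vesicular glutamate transporter of cortex and some other forebrain regions. All 10 markers of hypothalamic neurons had differences above 0, with 6 at least 25% higher, including *Npy* (16.3 against 22.7 CPM) and *Pomc* (20.4 against 28.2 CPM). Of the astrocyte, microglia, endothelial and ependymal markers, 0 were past the yardstick on either diet.

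**Figure D1:**
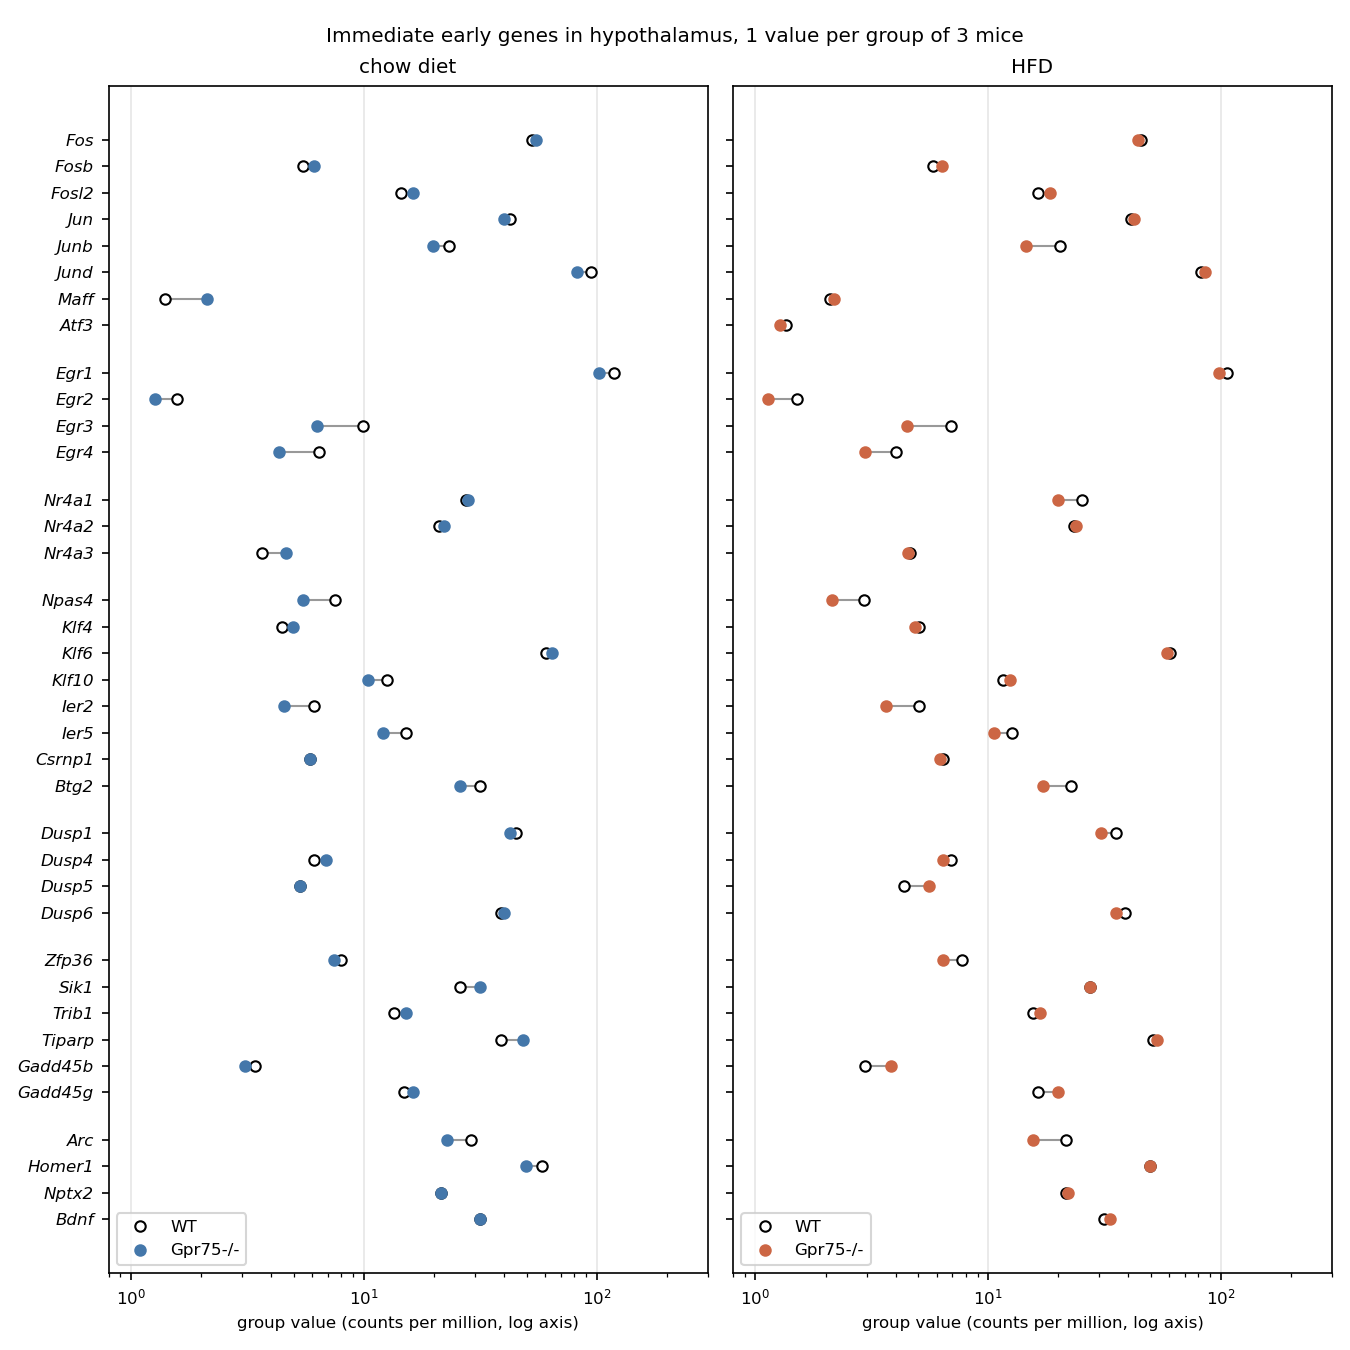
Group values of the immediate early genes in CPM on a log axis, on chow (left) and on the HFD (right), with open circles for WT and filled circles for *Gpr75-/-* and 1 value per group of 3 mice. *Egr3* and *Egr4* sit left of their WT circles on both diets, while the circles of *Fos* nearly coincide.

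**Figure D2:**
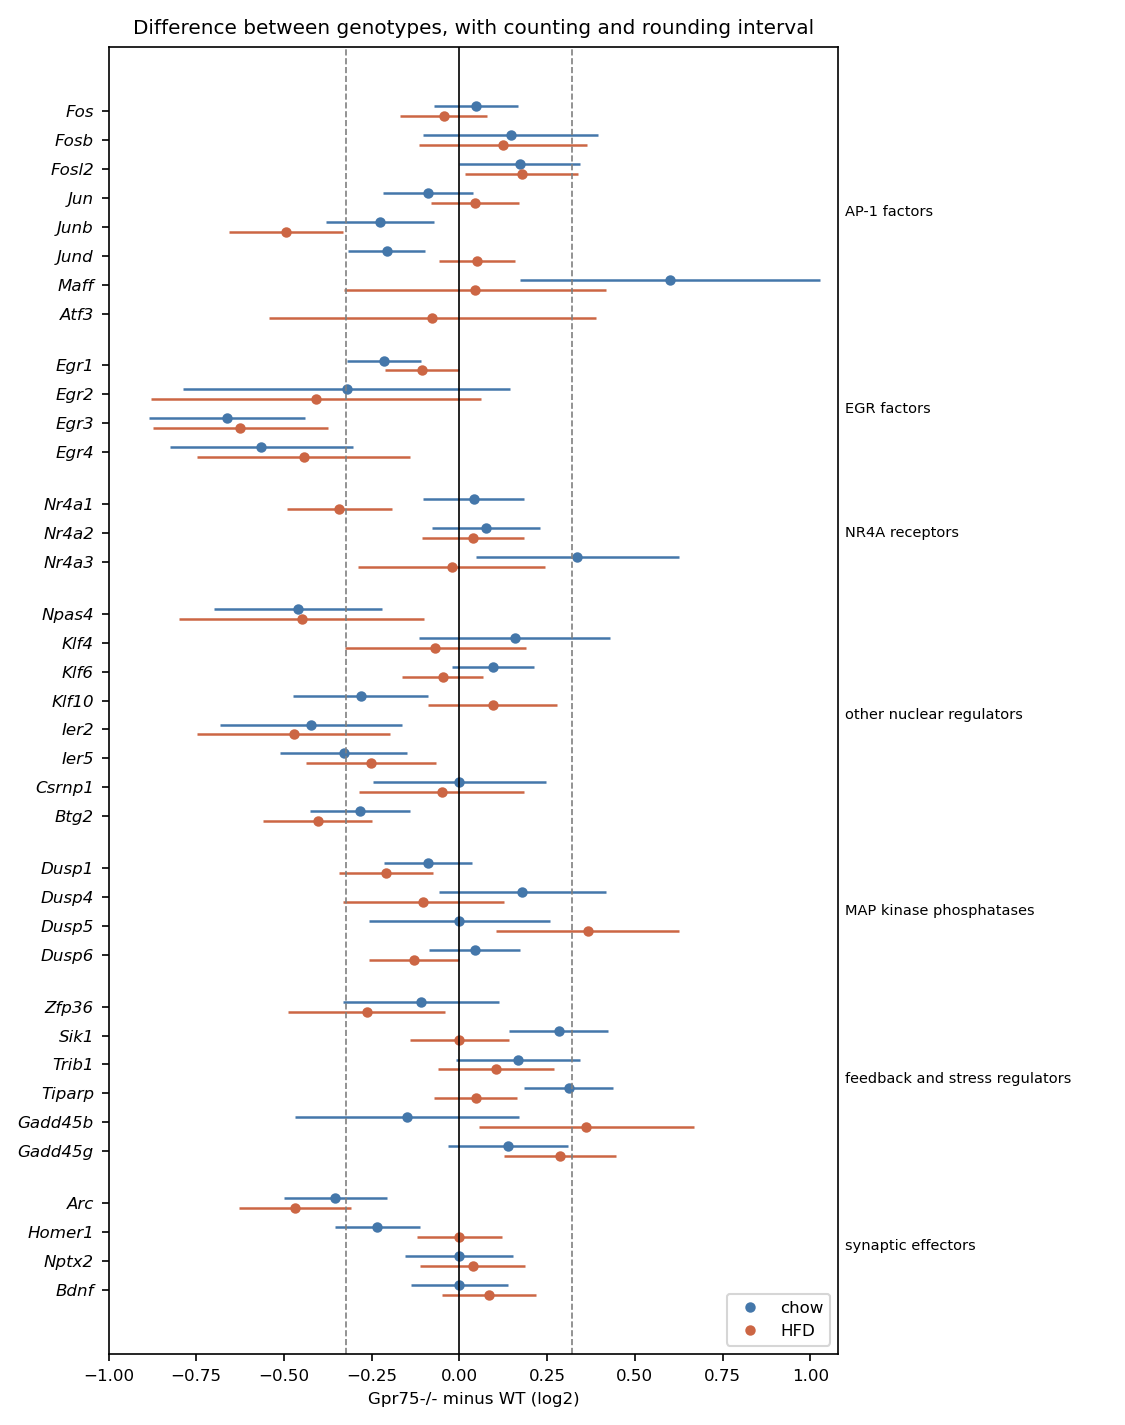
Difference between the genotypes (*Gpr75-/-* minus WT, log2) for each gene on chow (blue) and on the HFD (orange), ordered by role, with dashed lines 0.32 either side of 0. Bars are 95% intervals for counting and rounding error only, and those of 9 genes (*Arc*, *Btg2*, *Egr1*, *Egr3*, *Egr4*, *Ier2*, *Ier5*, *Junb* and *Npas4*) lie below 0 on both diets, against 2.01% of all genes.

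The EGR factors, zinc finger proteins that carry the early signal to later target genes, had differences below 0 for all 4 genes on both diets, with 2 at least 20% lower on chow and 3 on the HFD. Of all genes measured on both diets, 17.3% were below 0 on both. *Egr3* (ENSMUSG00000033730, chromosome 14, 70314652 to 70320063) had group values of 9.97 CPM in WT and 6.30 CPM in *Gpr75-/-* mice on chow, and 6.89 and 4.47 CPM on the HFD. The *Gpr75-/-* value was thus 0.632 of WT on chow (log2 difference -0.66, interval -0.88 to -0.44) and 0.649 on the HFD (-0.62, -0.87 to -0.37), the lowest ratio of the set on each diet. For *Egr3* on chow, the mean of both group values lay below the mean count over the mice by 0.110 log2 units, the widest such gap among the immediate early genes. Among all chow genes with mean counts from 100 to 1000, 99.7% had a gap within 0.1 log2 units. *Egr3* thus lay outside that range, with group values below the mean count, as for *Ttr* and *Kl* on chow. Its chow ratio is therefore less certain than its interval shows. *Egr4* (ENSMUSG00000071341, chromosome 6, 85488103 to 85490571) went from 6.41 to 4.34 CPM on chow and from 4.03 to 2.96 CPM on the HFD, or 0.676 and 0.735 of WT. *Egr1*, the EGR gene with the highest mean count, was nearer to WT, at 0.861 of WT on chow (119 against 102 CPM, -0.22, -0.32 to -0.11) and 0.929 on the HFD (106 against 98.4 CPM). *Egr2* was near the minimum count, with 1.58 against 1.26 CPM on chow and 1.51 against 1.13 CPM on the HFD, and its intervals spanned 0 on both diets with ratios of 0.801 on chow and 0.753 on the HFD. On chow *Egr2* was just short of the yardstick of 0.32, at -0.3207, and *Ier5*, at -0.33, was the nearest gene past it.

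*Npas4*, *Ier2* and *Arc* were also at least 20% lower on both diets. *Npas4* encodes a transcription factor made almost only in neurons after calcium entry. It had 7.56 CPM in WT and 5.50 CPM in *Gpr75-/-* mice on chow, and 2.93 and 2.14 CPM on the HFD (ENSMUSG00000045903, chromosome 19, 5034383 to 5040344). The ratios of 0.727 (-0.46, interval -0.70 to -0.22) and 0.732 (-0.45, -0.80 to -0.10) were nearly the same. *Ier2*, a nuclear regulator that responds early to many stimuli, had 6.08 against 4.54 CPM on chow and 5.06 against 3.65 CPM on the HFD, giving ratios of 0.746 and 0.721 (ENSMUSG00000053560, chromosome 8, 85387960 to 85389483). *Arc*, whose protein acts at the synapse in the removal of AMPA receptors, had 29.0 against 22.7 CPM on chow and 21.5 against 15.5 CPM on the HFD (ENSMUSG00000022602, chromosome 15, 74540932 to 74544419). Its ratio was 0.782 on chow (-0.35, -0.50 to -0.21) and 0.723 on the HFD (-0.47, -0.63 to -0.31), and with a mean of 475 and 366 normalized counts *Arc* has the smallest counting error of these genes. The genes at least 20% lower on both diets were thus *Egr3*, *Egr4*, *Npas4*, *Ier2* and *Arc*, 5 of 36, against 0.369% of the 16002 genes measured on both. The rounding of the deposited values can end the call of *Arc* on chow, and over the whole rounding range 4 of 36 were lower on both diets, against 0.287% of all genes. The calls of *Ier5* and *Nr4a3* on chow and of *Nr4a1* on the HFD can end in the same way. On both diets, 0 of 36 were at least 25% higher, against 0.362% of all genes.

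The AP-1 factors are the FOS, JUN, ATF and MAF proteins that pair to bind the AP-1 site, and they differed in both directions, with medians of 0.05 on chow and 0.04 on the HFD. *Fos*, the usual marker of recent neuronal activity, had 53.0 CPM in WT and 54.7 CPM in *Gpr75-/-* mice on chow (0.05, interval -0.07 to 0.17) and 45.2 and 43.8 CPM on the HFD (-0.04, -0.17 to 0.08). *Fosb* was at 1.11 of WT on chow and 1.09 on the HFD, with intervals that span 0 (-0.10 to 0.40 and -0.11 to 0.36). *Fosl2* was at 1.13 on both diets, with an interval that spans 0 on chow and runs from 0.02 to 0.34 on the HFD. *Junb*, whose protein forms weaker activators than JUN does, was at 0.855 of WT on chow (23.3 against 19.9 CPM, -0.23, -0.38 to -0.07) and 0.710 on the HFD (20.4 against 14.5 CPM, -0.49, -0.66 to -0.33). *Jun* stayed within 0.09 log2 units of WT on both diets. *Jund*, a steadily expressed JUN gene, had 94.9 against 82.2 CPM on chow and 82.2 against 85.2 CPM on the HFD. *Junb* (ENSMUSG00000052837, chromosome 8, 85701113 to 85705347) lies 312 kb from *Ier2*, the other immediate early gene of this chromosome past the yardstick on the HFD. *Maff*, a small MAF protein gene without an activation domain, had 1.40 against 2.12 CPM on chow and 2.10 against 2.16 CPM on the HFD, so its ratio of 1.52 on chow goes with the lowest of its 4 group values in WT mice. *Atf3* was measured on the HFD only, at 1.35 and 1.28 CPM.

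The NR4A genes encode orphan nuclear receptors that are active without a known hormone. *Nr4a1* (ENSMUSG00000023034, chromosome 15, 101152150 to 101172676) had 27.4 against 28.2 CPM on chow and 25.2 against 19.9 CPM on the HFD. Its ratio was therefore 1.03 on chow and 0.789 on the HFD (-0.34, interval -0.49 to -0.19). *Nr4a2* was within 0.08 log2 units of WT on both diets, and *Nr4a3* had 3.65 against 4.61 CPM on chow and 4.61 against 4.54 CPM on the HFD.

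Among the other nuclear regulators, *Btg2* was past the yardstick on the HFD and *Ier5* on chow. *Btg2* (ENSMUSG00000020423, chromosome 1, 134002908 to 134006858), which slows cell division and promotes the removal of mRNA tails, had 31.5 against 25.9 CPM on chow and 22.7 against 17.1 CPM on the HFD. Its ratios were 0.822 (-0.28, interval -0.42 to -0.14) and 0.756 (-0.40, -0.56 to -0.25). *Ier5* had 15.2 against 12.1 CPM on chow, a ratio of 0.796, and 12.6 against 10.6 CPM on the HFD, a ratio of 0.840. The KLF zinc finger factors showed no common direction. *Klf10*, induced by TGF-β, was at 0.823 on chow and 1.07 on the HFD, and *Klf4* lay at 1.12 and 0.953. *Klf6* had 60.4 against 64.6 CPM on chow and 60.4 against 58.4 CPM on the HFD. *Csrnp1*, a nuclear protein gene, had the same value in both genotypes on chow and was at 0.965 on the HFD.

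Of the 10 genes for MAP kinase phosphatases and for feedback and stress regulators, 0 were past the yardstick on chow, and on the HFD 2 were higher and 0 lower. With 10 genes and the shares of all genes given above, these counts are not a result about the group. DUSP phosphatases remove the activating phosphates from MAP kinases, and *Dusp1*, *Dusp4* and *Dusp6* were between 0.865 and 1.13 of WT. *Dusp1* had 45.2 against 42.5 CPM on chow and 35.4 against 30.7 CPM on the HFD. *Dusp5*, which acts in the nucleus, had the same group value of 5.32 CPM in both genotypes on chow and 4.34 against 5.59 CPM on the HFD, a ratio of 1.29 (0.37, interval 0.11 to 0.63). *Gadd45b*, a stress and DNA demethylation gene, was at 0.902 of WT on chow (3.41 against 3.08 CPM) and 1.28 on the HFD (2.96 against 3.81 CPM). The related *Gadd45g* had 14.8 against 16.3 CPM on chow and 16.3 against 19.9 CPM on the HFD. *Sik1*, a kinase that switches off CREB coactivators, had 25.9 against 31.5 CPM on chow and 27.4 CPM in both genotypes on the HFD. *Tiparp*, an ADP-ribosyltransferase gene, was at 1.24 on chow (38.8 against 48.1 CPM) and 1.03 on the HFD (51.3 against 53.0 CPM). *Trib1*, a pseudokinase gene, was at 1.12 and 1.07, and *Zfp36*, whose protein marks short-lived mRNAs for decay, at 0.927 and 0.833.

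Of the synaptic effectors, *Arc* alone was past the yardstick. *Nptx2*, which clusters AMPA receptors, had 21.5 CPM in both genotypes on chow and 21.5 against 22.1 CPM on the HFD. *Bdnf*, the neurotrophin gene, had 31.5 CPM in both genotypes on chow and 31.5 against 33.4 CPM on the HFD. *Homer1* was at 0.850 on chow (58.4 against 49.7 CPM) and at 49.7 CPM in both genotypes on the HFD. *Homer1* and *Bdnf* also give transcripts that do not depend on activity, and values per gene do not separate them.

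**Figure D3:**
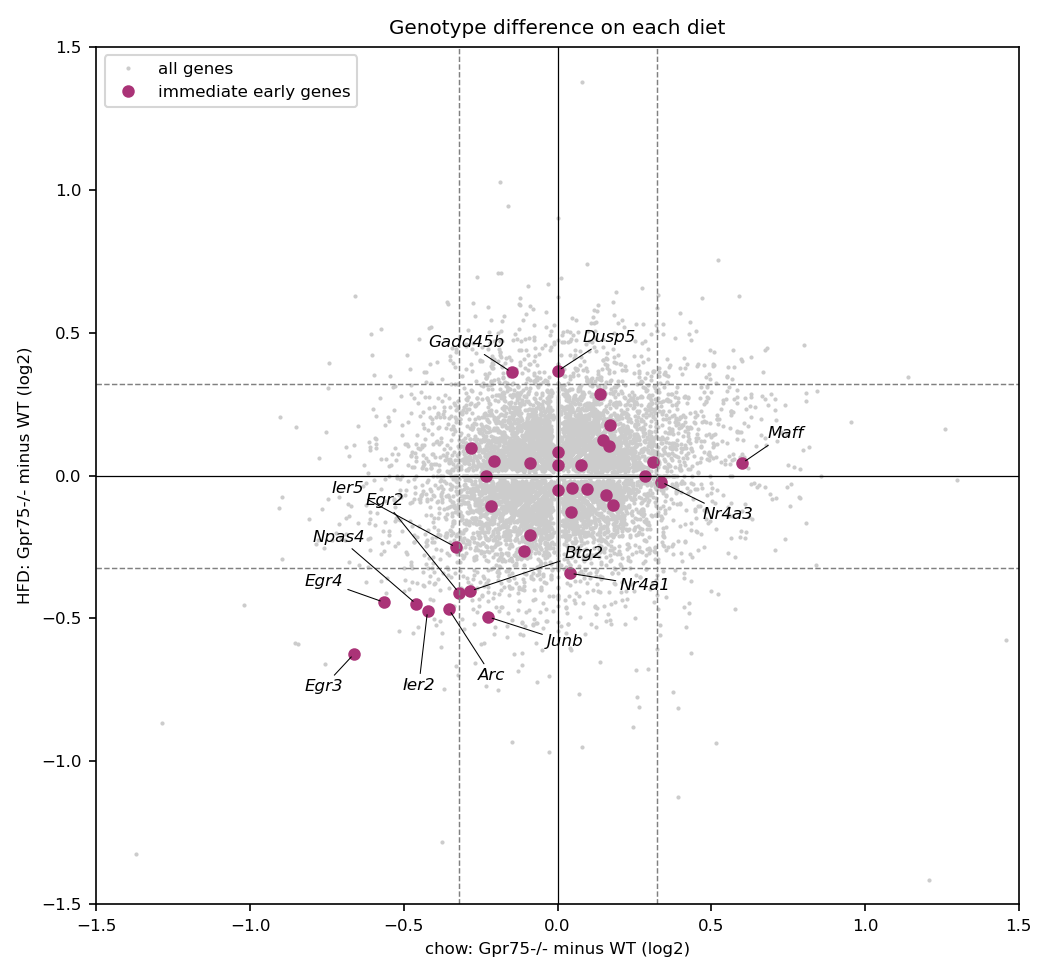
Genotype difference (*Gpr75-/-* minus WT, log2) on chow (horizontal) against the HFD (vertical) for 36 immediate early genes (purple) and all 16002 genes measured on both diets (gray), with dashed lines 0.32 either side of 0. *Egr3*, *Egr4*, *Npas4*, *Ier2* and *Arc* lie in the lower left corner and no immediate early gene lies in the upper right one.

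Each diet had its own WT mice, so the differences on the diets share no animal. Across the 36 genes measured on both, the chow and HFD differences were related with r = 0.633 (Pearson) and rho = 0.576 (Spearman), and across all 16002 genes with 0.140 and 0.133. Genes share the mice they were measured in and are not replicates, so these are descriptions. The HFD difference minus the chow difference had a median of -0.05 over the 36 genes. Its interval excluded 0 for 8 of them (22.2%), against 10.1% of all genes. It lay below 0 for *Junb*, *Nr4a1*, *Sik1* and *Tiparp*, and above 0 for *Jund*, *Klf10*, *Gadd45b* and *Homer1*. For *Nr4a1* it was -0.38 (interval -0.61 to -0.15), and for *Klf10* 0.38 (0.09 to 0.66). For *Egr3* it was 0.04 (-0.31 to 0.39) and for *Npas4* 0.01 (-0.43 to 0.45), and both intervals span 0.

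Further genes of the same pathway were counted in the same way. Of 28 further activity-induced genes, 1 was at least 20% lower and 3 at least 25% higher on chow, and 1 lower and 0 higher on the HFD, with medians of 0.06 and 0.04. The shares on chow were 3.57% lower and 10.7% higher, against 3.36% and 3.57% of all genes, and on the HFD 3.57% and 0%, against 2.30% and 2.67%. Their intervals lay wholly above 0 for 7 genes (25%) and below 0 for 1 on chow, and above 0 for 5 (17.9%) and below 0 for 2 on the HFD, against 9.43% and 7.91% of all genes above 0. *Nfkbid*, an inhibitor of NF-κB, was the lower one on the HFD (3.20 against 2.23 CPM), and *Cebpd* and *Nfil3*, both bZIP factor genes, were at 1.38 and 1.29 of WT on chow. Of 31 genes for the kinases, channels and factors that act upstream, including *Creb1* and *Srf*, 0 were past the yardstick on either diet. The interval lay wholly below 0 for 5 of the 31 (16.1%) and wholly above 0 for 1 on each diet, against 9.51% of all genes below 0 on chow and 6.91% on the HFD. *Creb1*, the gene of the CRE-binding factor itself, was at 0.876 of WT on chow (interval -0.31 to -0.07) and 0.879 on the HFD (-0.31 to -0.07). The medians of the 31 genes were -0.05 and 0.00, and the widest differences were those of *Mef2c* on the HFD (69.1 against 56.5 CPM), *Camk4* on chow (22.1 against 18.4 CPM) and *Ppp3ca* on chow (532 against 461 CPM).

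**Figure D4:**
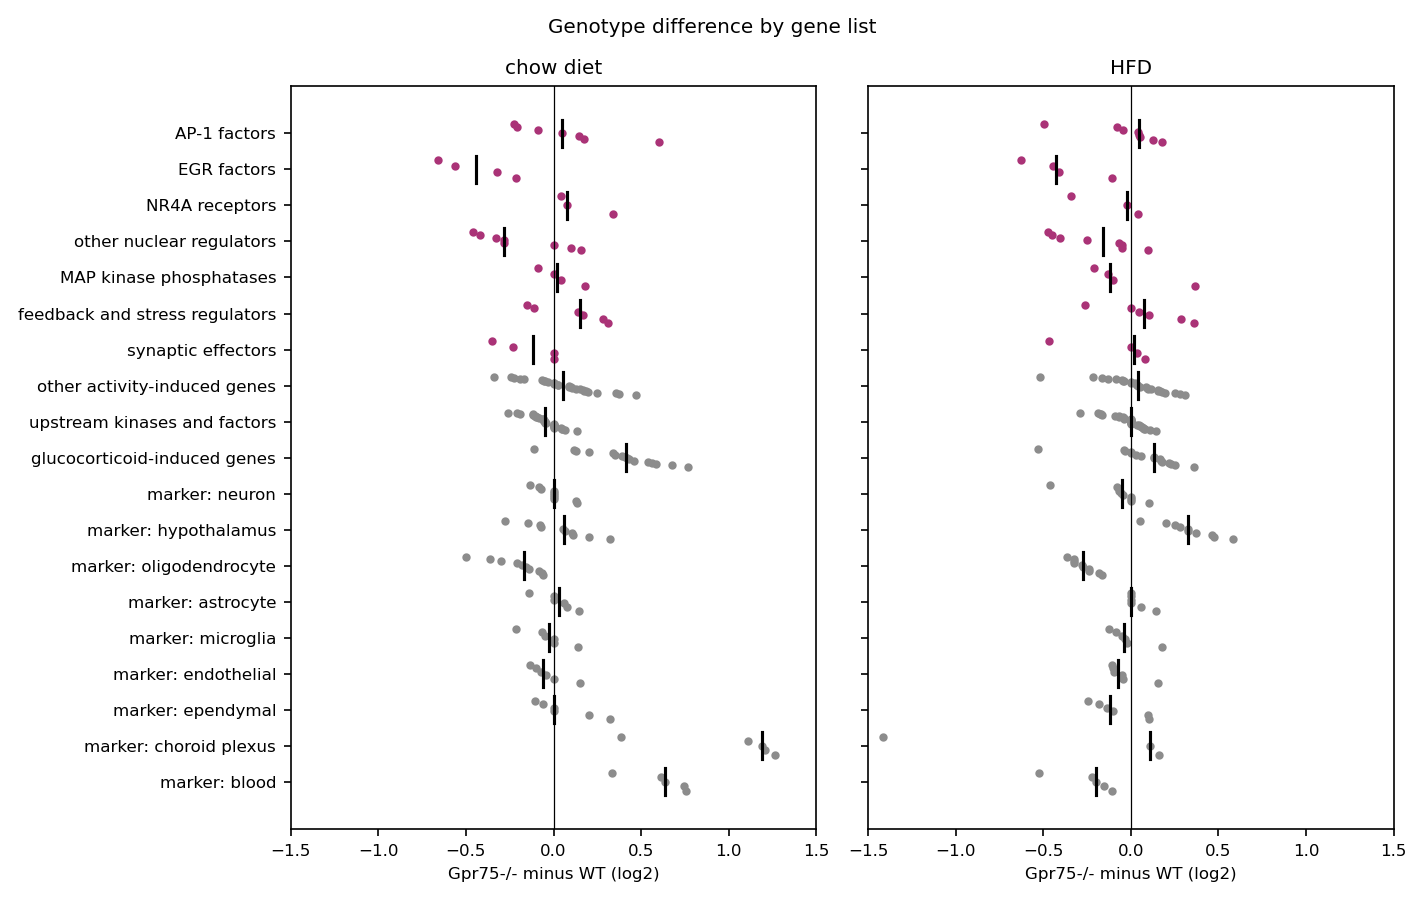
Genotype difference (*Gpr75-/-* minus WT, log2) of single genes by list on chow (left) and on the HFD (right), with immediate early genes by role in purple, other lists in gray and a black bar at each list's median. The EGR medians lie at -0.44 and -0.43, and the medians of the choroid plexus, blood and glucocorticoid-induced lists lie to the right of 0 on chow.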

How the data were processed

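RNA was measured in hypothalamus of 12 mice, 3 per genotype and diet. The authors made libraries with a SMART-Seq mRNA kit and compared genotypes within each diet with DESeq2. The submitters' processing notes also name STAR, featureCounts, StringTie and the build GRCm39, which is used for gene coordinates here. The values analyzed are pooled. The deposited signal per gene is the authors' mean over 6 mice of counts divided by size factors. The deposited group values are on a log2 scale that the sources used here do not name. They match log2(1 + log2 CPM), rounded to 2 decimals. Read back, their mean lay within 0.1 log2 units of the mean count on the CPM scale for 99.5% of genes on chow and 99.7% on the HFD at a mean of at least 25. They do not match everywhere, as for *Ttr* on chow, with a mean count of 2910 but group values of 5.59 and 12.9 CPM, and how the mice were averaged is not given in the sources used here. The authors' fold changes, standard errors and p-values are also deposited and were not used.

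Differences were taken as *Gpr75-/-* minus WT in log2 CPM. The counting error came from the CPM of 3 mice per group at the summed mean count. Without molecular identifiers it covers counting error only. The tables of the diets were normalized separately. All 37 genes were accounted for. Both values are given for those past the yardstick on either diet, for the gene with the highest mean count on chow in each role, and for up to 3 genes of each other list. *Creb1*, *Fkbp5*, *Map3k6*, *Kcnj13*, *Aqp1* and *Clic6* were named after their values were seen. The immediate early genes and the other lists were chosen with earlier results of these data known. Alternatives were no minimum, a minimum of 100, protein-coding genes, centring, and limits of 0.20 and 0.58 on the log2 scale in place of 0.32. The steps were run on simulated counts with counting error only, held on the same assumed scale, with planted changes well past the yardstick. That run cannot check the scale, how the mice were averaged, the spread between mice or calls near the yardstick. Tests on counts had been planned for values of single mice and could not be run. Python 3.11.15, numpy 2.4.6, pandas 2.3.3 and matplotlib 3.10.9 were used.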

Additional observations from a re-analysis of the deposited data

How the results depend on the processing

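The immediate early genes past 0.32 on the log2 scale on chow numbered 8, of which 6 were lower. With a mean count of at least 100 they numbered 5 of 29 (17.2%), all lower, because *Ier2*, *Maff* and *Nr4a3* lie under that minimum, and the genes past the limit among all genes went from 1124 to 280 of 12413 (2.26%). Counting only genes past the limit over the whole rounding range, an alternative chosen after seeing the data, also gave 5 (13.9%, against 5.92% of all genes), and 10 on the HFD (27.0% against 4.27%), 8 of them lower. On the HFD the 11 genes, 9 of them lower, became 5 of 27 (18.5%), all lower, at a mean of at least 100, and all genes past the limit went from 811 to 179 of 12509 (1.43%). Among protein-coding genes, all genes past the limit numbered 578 on chow and 494 on the HFD. A limit of 0.20 in place of 0.32 gave 17 genes on chow (47.2%, against 17.1% of all genes), 13 of them lower, and 15 on the HFD (40.5% against 13.9%), 12 of them lower. A limit of 0.58 gave 2 on chow (5.56% against 1.07%), 1 of them lower, and 1 on the HFD (2.70% against 0.521%), which was lower. No minimum, and centring on the median or mean of all genes, moved no count of immediate early genes by more than 1. The median on the HFD ranged from -0.06 to -0.04 and that on chow stayed at 0.00. No paired analysis was possible because the values are 1 per group and carry no replicate numbers, and leaving out single mice was not run for the same reason. The intervals cover counting and rounding alone, and the spread between mice is not part of them.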

Other observations

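Levels of the same gene on the diets come from tables normalized separately, so the values that follow are set side by side with no test, and whether the genotypes differ in them was not tested. *Npas4* had the widest gap between the diets of the immediate early genes in WT mice, with 7.56 CPM on chow and 2.93 CPM on the HFD, and *Gpr75-/-* mice had 5.50 and 2.14 CPM. The HFD value was 0.387 of the chow value in WT and 0.390 in *Gpr75-/-* mice. *Egr4* had 6.41 and 4.03 CPM in WT and 4.34 and 2.96 CPM in *Gpr75-/-* mice, and *Egr3* 9.97 and 6.89 CPM in WT and 6.30 and 4.47 CPM in *Gpr75-/-* mice. In WT mice 6 of the 36 genes measured on both diets were at least 20% lower on the HFD and 3 at least 25% higher, and in *Gpr75-/-* mice 8 were lower and 0 higher by these limits. Over all 16002 genes, 5.57% were at least 20% lower and 3.29% at least 25% higher on the HFD in WT mice, and 4.36% and 2.29% in *Gpr75-/-* mice. The day, hour and order in which the mice of each diet were taken are not given in the sources used here.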
